A study of Homo sapiens with 6 samples.

Results

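Human chromosome 19 carries the densest collection of zinc finger genes in the genome, and the genes described here are its protein-coding genes whose symbol is ZNF followed by a number and an optional letter. The rule gave 247 genes of the 60604 genes used. It left out 16 ZNF symbols on the chromosome whose biotype is not protein-coding. Of the 247 genes, 196 had enough counts to be tested, among 15022 genes tested in all. The other 51 had at most 23 counts in any library, and 21 of them had none in any library.

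The proteins of most of these genes bind DNA through tandem zinc fingers of the C2H2 kind, small loops each held around a zinc ion by cysteines and histidines. Many also carry a KRAB domain, which recruits the corepressor TRIM28 (KAP1), and through it SETDB1, the methyltransferase that places trimethylation on lysine 9 of histone H3, and heterochromatin protein HP1. They arose largely by tandem duplication, stand in clusters along the chromosome, and are known above all for silencing transposable elements.

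RNA was sequenced from the human cell line MIA PaCa-2, established from a pancreatic carcinoma, under 2 treatments with 3 libraries each. The first group, BP+Huaier, received black phosphorus (BP, elemental phosphorus in stacked layers) at 12.5 µg/ml plus 10 mg/ml of Huaier, a preparation made from a fungus used in medicine. The other group, BP, received black phosphorus alone at 12.5 µg/ml, so both groups carried BP, and cells without it were not analysed here. Both groups are labelled wild type. No source used here gives the treatment time, and whether the libraries of a group are separate cultures is not said in the labels, so each p-value weighs only the spread among these libraries, which may be technical.

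Total counts on genes were 15808056 to 16856727 in the BP+Huaier libraries and 15657593 to 17036565 in the BP libraries, and 3 counts corresponded to 0.160 to 0.222 CPM (counts scaled to library size, with TMM factors). The line's genes KRT8, KRT18 and VIM summed to 4390 to 6250 CPM in BP+Huaier and 4830 to 5000 CPM in BP, and CDKN2A, which MIA PaCa-2 has lost, had no count in any library. The leukocyte genes PTPRC and CD3E and the fibroblast genes LUM and DCN also had none. Of 6 fibroblast genes, COL1A2 carried most of a sum of 386 to 489 CPM in BP+Huaier and 502 to 558 CPM in BP, and COL1A1, at a low level, rose (5.92 ± 0.648 CPM in BP+Huaier and 1.34 ± 0.101 CPM in BP, SD, n = 3 each; edgeR adjusted p = 0.00089). KRT18 also rose (log2 fold change 0.78, edgeR adjusted p = 0.037). The 5 leukocyte genes summed to 21.1 to 34.1 CPM in BP+Huaier and 40.9 to 45.5 CPM in BP, nearly all from CD14, and the 3 endothelial genes to 11.9 to 14.7 CPM in BP+Huaier and 17.6 to 21.1 CPM in BP, nearly all from CDH5, which fell (-0.58, edgeR adjusted p = 0.030). The part of these genes in the results below was not tested. In bulk RNA, fewer cells that express a gene and less of its RNA per cell cannot be told apart.

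The stretch below shows what many of the genes share. In tandem finger genes a short linker joins one finger to the next, and its coding sequence recurs at a fixed spacing. The finger linker motif is a run of 21 bases that codes for the amino acids HTGEKP followed by Y or F, in every codon spelling. It was searched on the sense strand of the longest GENCODE 29 transcript and was not found in 38 of the 196 tested genes. Linkers with other amino acids, or outside that transcript, were not counted. For ZNF347, ZNF780A and ZNF91, which appear in the results, the first finger between 2 such linkers at the 84-base spacing is printed 5′ to 3′ from the transcript, with the linkers in capitals, at transcript bases 1084 to 1188, 769 to 873 and 1068 to 1172.
ZNF347: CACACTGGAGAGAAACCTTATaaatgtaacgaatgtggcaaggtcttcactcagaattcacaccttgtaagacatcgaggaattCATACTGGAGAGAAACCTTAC
ZNF780A: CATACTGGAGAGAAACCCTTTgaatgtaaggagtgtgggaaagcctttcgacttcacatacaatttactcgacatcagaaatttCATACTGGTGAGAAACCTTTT
ZNF91: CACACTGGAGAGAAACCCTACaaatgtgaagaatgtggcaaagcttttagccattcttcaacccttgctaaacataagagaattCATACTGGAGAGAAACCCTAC
The capitals recur almost letter for letter within and between the genes, while the finger between them differs. Such repeats can make short reads hard to assign: 18 of the 196 tested genes share at least 150 bases at 95% identity or more with the longest transcript of another gene of the family. A further mark of doubt is exon overlap with another gene, above 10% of exon bases in 48 of the 196. Together 59 genes carry at least one of these marks, and how the authors' counting treated strand and multiply mapped reads is not stated in any source used here.

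With Huaier added to BP, 65 of the 196 tested chromosome 19 ZNF genes fell, 8 rose and 123 did not pass the test (edgeR's quasi-likelihood test, Benjamini-Hochberg adjusted p under 0.05 over all genes tested). The 65 are 33.2% of the tested genes, against 15.0% of all genes tested that fell. The 8 are 4.08%, against 14.4% of all genes that rose. The median log2 fold change was -0.64, beside -0.02 over all genes tested and 0.03 over all protein-coding genes, and 151 of the 196 (77%) had a negative value. Of the 65 that fell, 51 fell by more than 2-fold, and of the 8 that rose, 3 did so. Over all genes tested, 1350 of the 2246 that fell and 664 of the 2160 that rose changed by more than 2-fold. All 3 BP+Huaier libraries lay below all 3 BP libraries for 87 of the 196 genes (44.4%), where 24.9% of all genes tested did, and above them for 12 (6.12%), where 21.9% of all genes did. The 65 genes that fell included 13 with exon overlap above 10% and 3 with a near-identical partner, and 49 carried neither mark; of the 8 that rose, 7 carried neither.

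The count of genes that fell moved with the libraries in the fit. It was 122 without BP+Huaier 3, 29 without BP+Huaier 2, 33 without BP 1, 25 without BP 2 and 38 without BP 3, and 53 without BP+Huaier 1. The share of all genes tested that fell moved with it, at 31.0% without BP+Huaier 3, 6.48% without BP+Huaier 2, 5.92% without BP 1, 6.14% without BP 2, 6.84% without BP 3 and 11.8% without BP+Huaier 1. In each of these fits the share of chromosome 19 ZNF genes that fell, 12.7% to 61.9%, was above that of all genes. The count that rose was 16 without BP+Huaier 3 and 3 to 7 in the other fits with a library left out. Of all genes tested, 28.8% rose without BP+Huaier 3 and 5.27% to 11.4% in those other fits.

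**Figure D1:**
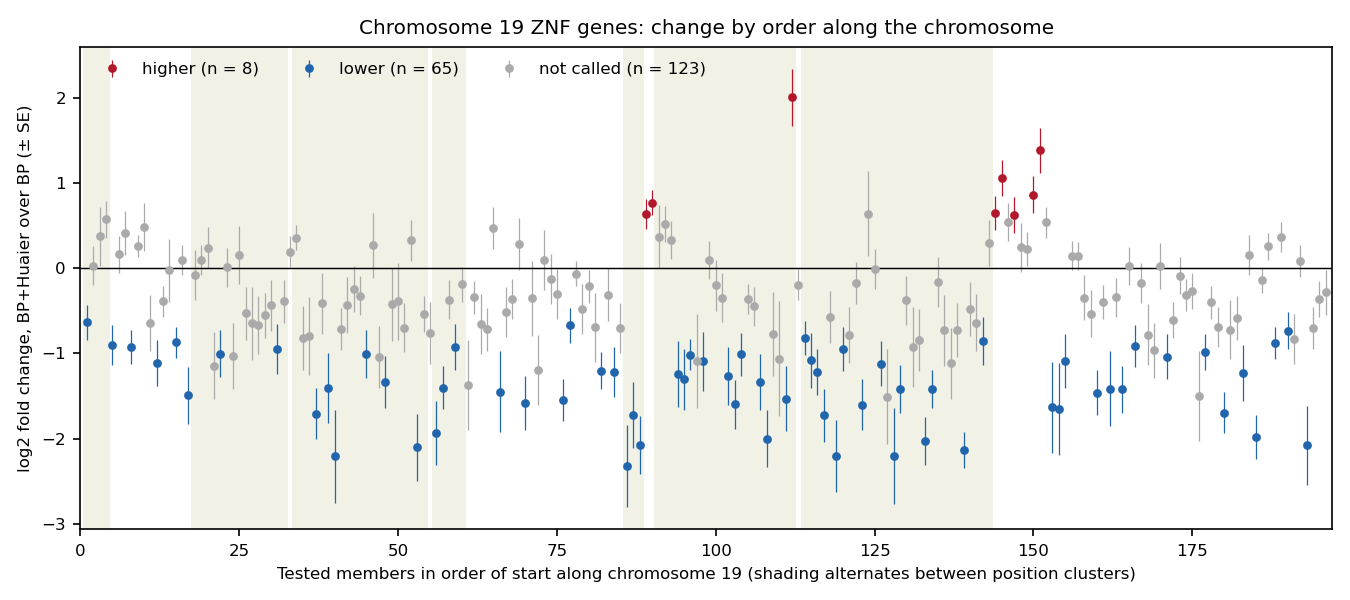
The log2 fold change of each of the 196 tested genes, BP+Huaier over BP, with its standard error (y axis), in order of gene start along chromosome 19 (x axis); red points rose, blue points fell and grey points did not pass the test, and shading alternates between position clusters. Blue points occur along most of the chromosome, while the 8 red points lie at a few places in the right part.

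The libraries of the BP+Huaier group differed from each other. Set against the mean of the BP libraries, the median log2 ratio of the 196 genes in BP+Huaier 1, 2 and 3 was -0.73, -0.75 and -0.21, against 0.00, 0.08 and -0.09 in BP 1, 2 and 3. BP+Huaier 3 thus lay nearer to the BP libraries. It was the highest library of the group for 145 of the 196 genes, among them 53 of the 65 that fell, and the lowest for 8 of the 8 that rose. In BP+Huaier 1 and in BP+Huaier 2, 147 genes lay below every BP library, and in BP+Huaier 3, 98 did. These counts were made for the 196 genes only, so they cannot show whether BP+Huaier 3 stands apart more here than elsewhere. Over all genes tested, 15.0% fell with BP+Huaier 3 in the fit and 31.0% without it. Whatever sets BP+Huaier 3 apart was not tested. The summed level of the 196 genes was 2070, 1893 and 2031 CPM in BP+Huaier and 1999, 2085 and 1970 CPM in BP, so the sums of the groups overlapped. Across the 196 genes the log2 fold change went with the mean log2 CPM (Pearson's r 0.536, Spearman's rho 0.518), a description over genes that share libraries and depth.

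The largest falls among genes with a mean of at least 1 CPM are shown first. ZNF546 (chr19:39984134-40021038, plus strand) had 0.489, 0.591 and 2.42 CPM in BP+Huaier, against 6.98, 6.17 and 5.20 CPM in BP. Every BP+Huaier library was below every BP library, with BP+Huaier 3 the nearest, and the log2 fold change was -2.32 ± 0.48 (SE; edgeR adjusted p = 0.0091). ZNF780A (chr19:40069152-40090943, minus strand), which lies close by, had 1.33, 1.99 and 4.09 CPM in BP+Huaier, against 10.8, 11.0 and 10.2 CPM in BP. The BP+Huaier libraries stood in the same order, and it fell by 2.08 ± 0.34 on the log2 scale (edgeR adjusted p = 0.0038).

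ZNF347 (chr19:53124072-53159075, minus strand), whose finger is printed above, had the smallest adjusted p among the 10 largest falls. It had 1.54, 1.40 and 1.73 CPM in BP+Huaier, against 6.65, 7.34 and 6.61 CPM in BP. Its libraries agreed closely within each group, at 1.56 ± 0.163 CPM in BP+Huaier and 6.87 ± 0.412 CPM in BP (SD, n = 3 each), and its log2 fold change was -2.13 ± 0.21 (edgeR adjusted p = 0.00089). ZNF615 had 1.75, 0.739 and 3.80 CPM in BP+Huaier, against 9.72, 11.2 and 8.98 CPM in BP. Here BP+Huaier 3 was again the highest of its group, and the gene fell by 2.21 ± 0.43 on the log2 scale (edgeR adjusted p = 0.0069). ZNF611 had 1.12, 1.77 and 2.07 CPM in BP+Huaier, against 7.20, 7.98 and 5.26 CPM in BP. The groups did not overlap, and it fell by 2.03 ± 0.28 (edgeR adjusted p = 0.0022).

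ZNF606 had 1.89, 1.03 and 1.90 CPM in BP+Huaier, against 6.54, 6.28 and 6.50 CPM in BP, with 12.53% of its exon bases shared with another gene. BP+Huaier 1 and 3 were alike here, and it fell by 1.98 ± 0.26 (edgeR adjusted p = 0.0017). ZNF302 had 1.54, 2.29 and 5.24 CPM in BP+Huaier, against 12.0, 13.1 and 10.3 CPM in BP. BP+Huaier 3 again stood between, and the log2 fold change was -1.93 ± 0.37 (edgeR adjusted p = 0.0070). ZNF233 had 0.559, 0.887 and 0.922 CPM in BP+Huaier, against 2.36, 4.10 and 3.13 CPM in BP, a fall of 2.00 ± 0.34 (edgeR adjusted p = 0.0041).

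The remaining large falls were of genes near the limit of detection. ZNF681 had 0.210, 0.591 and 0.461 CPM in BP+Huaier, against 1.70, 2.08 and 1.71 CPM in BP. It fell by 2.1 ± 0.39 on the log2 scale, and BP+Huaier 2, not 3, was the highest of its group (edgeR adjusted p = 0.0061). ZNF66 had 0.140, 0.222 and 0.864 CPM in BP+Huaier, against 1.43, 2.39 and 2.24 CPM in BP. BP+Huaier 1 and 2 were at or below the level of 3 counts, so its fall of 2.21 ± 0.55 on the log2 scale (edgeR adjusted p = 0.018) rests on few reads. Its call was lost without BP+Huaier 2, BP 2 or BP 3 (edgeR adjusted p 0.075, 0.082 and 0.068). Enough counts in either group let a gene pass the filter, and for ZNF681 and ZNF66 that group was BP. The same holds for ZNF546 and ZNF233 above, so their falls also carry this limit. Other low genes that fell entered the test in the same way, and how many of the 65 did so was not counted.

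**Figure D2:**
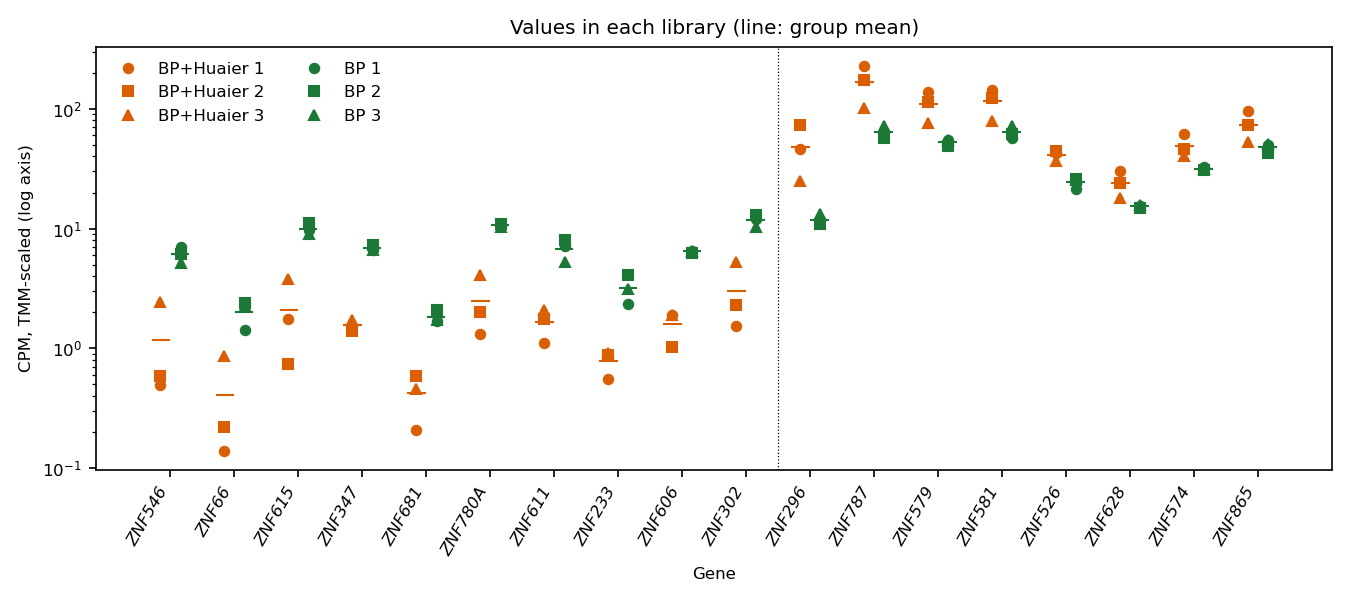
TMM-scaled CPM (y axis, log scale) in each library for the 10 largest falls with a mean of at least 1 CPM, left of the dotted line, and the 8 genes that rose, right of it; orange marks are BP+Huaier and green marks BP, with 1 shape per replicate number and a line at the group mean. BP+Huaier 3, the orange triangle, lies nearest to the BP marks for 9 of the 10 falls and for 8 of the 8 rises.

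The 8 genes that rose stood at higher levels. ZNF296 (chr19:45071500-45076587, minus strand), which encodes a finger protein known from mouse embryonic stem cells, had 45.8, 72.6 and 25.1 CPM in BP+Huaier, against 11.7, 10.9 and 13.1 CPM in BP. Every BP+Huaier library was above every BP library although they differed widely from each other, and the log2 fold change was 2.01 ± 0.34 (edgeR adjusted p = 0.0041). ZNF787 (chr19:56087366-56121295, minus strand) had 227, 175 and 101 CPM in BP+Huaier, against 64.4, 56.9 and 71.6 CPM in BP. The groups again did not overlap, with a rise of 1.38 ± 0.26 (edgeR adjusted p = 0.0066).

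ZNF579 had 140, 115 and 76.1 CPM in BP+Huaier, against 55.0, 48.6 and 55.2 CPM in BP, a rise of 1.06 ± 0.21 on the log2 scale (edgeR adjusted p = 0.0078). ZNF526 had 42.8, 44.6 and 37.0 CPM in BP+Huaier, against 21.5, 26.1 and 25.3 CPM in BP, and rose by 0.77 ± 0.15 (edgeR adjusted p = 0.0066). Its 3 BP+Huaier libraries lay close together, unlike those of the other genes that rose; leaving out BP 1 took its adjusted p to 0.0502 in edgeR. ZNF581 had 145, 122 and 79.6 CPM in BP+Huaier, against 56.7, 62.0 and 71.8 CPM in BP, and rose by 0.86 ± 0.22 (edgeR adjusted p = 0.018), with 24.89% of its exon bases shared with its same-strand neighbour ZNF580. That call was lost without BP+Huaier 2, BP 1 or BP 2 (edgeR adjusted p 0.073, 0.082 and 0.082).

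ZNF574, ZNF628 and ZNF865 rose by 0.64 ± 0.17, 0.65 ± 0.20 and 0.62 ± 0.21 on the log2 scale, with means of 49.3 ± 10.7, 24.2 ± 6.27 and 73.9 ± 21.2 CPM in BP+Huaier and 31.7 ± 0.651, 15.4 ± 0.464 and 47.9 ± 4.22 CPM in BP (SD, n = 3 each; edgeR adjusted p 0.024, 0.037 and 0.050). These calls were fragile. ZNF628 and ZNF865 lost the call when any library other than BP+Huaier 3 was left out (edgeR adjusted p 0.088 to 0.13 for ZNF628 and 0.11 to 0.18 for ZNF865), and also once the trend described below on GC content was taken out (0.38 and 0.48). ZNF574 was lost without BP+Huaier 2, BP 1, BP 2 or BP 3 (edgeR adjusted p 0.065 to 0.098). For each of the 8 genes the BP+Huaier 3 value was the lowest of its group.

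By level per length, the 5 highest genes were ZNF581, ZNF787, ZNF358, ZNF579 and ZNF296, at 54.8, 31.5, 26.6, 24.6 and 17.1 mean CPM per kilobase, against a median of 0.950 mean CPM per kilobase over the 196 genes. Of these 5, 4 rose, where 14.4% of all genes tested did. The level is the mean over all 6 libraries, so a rise in BP+Huaier itself lifts a gene's rank. The 4 are thus a description only. ZNF358 did not pass the test, with 76.4, 59.0 and 40.1 CPM in BP+Huaier and 50.7, 47.7 and 58.1 CPM in BP (log2 fold change 0.16 ± 0.22, edgeR adjusted p = 0.59). It shares 34.13% of its exon bases with other genes, and its sign turned once the GC and length trend was removed (-0.36, edgeR adjusted p = 0.014). The median gene that fell had 0.758 mean CPM per kilobase and the median gene that rose 16.7.

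By position, a gap of more than 1 Mb between the starts of neighbouring members began a new cluster, which gave 16 clusters, 10 of them with at least 3 tested genes. Coordinates are GRCh38, 1-based, as the deposited table gives them. From the short-arm end, the 4 tested genes from ZNF554 to ZNF77 (2.82 to 2.94 Mb) had a median log2 fold change of 0.20, with 1 that fell, the only one of the 10 clusters with a positive median. The 13 genes from ZNF557 to ZNF846 (7.07 to 9.79 Mb) had a median of -0.39 with 5 that fell, and the 15 from ZNF653 to ZNF791 (11.5 to 12.6 Mb) a median of -0.53 with 2 that fell. Next to the centromere, the 21 tested genes from ZNF101 to ZNF254 (19.7 to 24.1 Mb), which include ZNF91, had a median of -0.70 with 6 that fell. None of the tested genes in these clusters rose, but ZNF77, ZNF699, ZNF562, ZNF101 and ZNF675 were called higher once the GC and length trend was removed (edgeR adjusted p 0.0035 to 0.048).

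On the long arm, the 5 genes from ZNF302 to ZNF792 (34.7 to 35.0 Mb) had a median of -0.92 with 3 that fell, and the 25 from ZNF565 to ZNF573 (36.2 to 37.8 Mb) a median of -0.52 with 6 that fell. The 3 genes of the small cluster near 40.1 Mb, ZNF546, ZNF780B and ZNF780A, all fell, with a median of -2.08. ZNF780B (chr19:40028260-40056231, minus strand), between the other two, had 1.61, 2.36 and 5.65 CPM in BP+Huaier, against 11.6, 11.9 and 8.92 CPM in BP. Its BP+Huaier libraries were in that order too, and it fell by 1.72 ± 0.39 (edgeR adjusted p = 0.013), a call lost without BP+Huaier 2 or BP 2 (0.061 and 0.059). The 2 tested genes at 42.1 to 42.2 Mb, ZNF574 and ZNF526, both rose.

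Further out, 10 of the 22 genes from ZNF575 to ZNF296 (43.5 to 45.1 Mb) fell and 1, ZNF296 at its far end, rose, with a median of -1.01. Of the 30 tested genes from ZNF175 to ZNF331 (51.6 to 53.6 Mb), 14 fell and none rose, with a median of -0.89. The last cluster, from ZNF628 to ZNF446 (55.5 to 58.5 Mb), held 53 tested genes, of which 15 fell and 5 rose, with a median of -0.40. A gap of 0.5 Mb in place of 1 Mb split it: the 13 genes from ZNF628 to ZNF835 (55.5 to 56.7 Mb) had a median of 0.54 with 5 that rose and 3 that fell, and the 40 from ZNF264 to ZNF446 (57.2 to 58.5 Mb) a median of -0.60 with none that rose and 12 that fell. The median transcript GC content was 61.7% on the first side of that split and 46.1% on the other. Within clusters, 119 of 182 pairs of neighbouring tested genes were both negative, 17 both positive and 46 of opposite sign (Pearson's r 0.201 across pairs, which share genes and libraries).

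**Figure D3:**
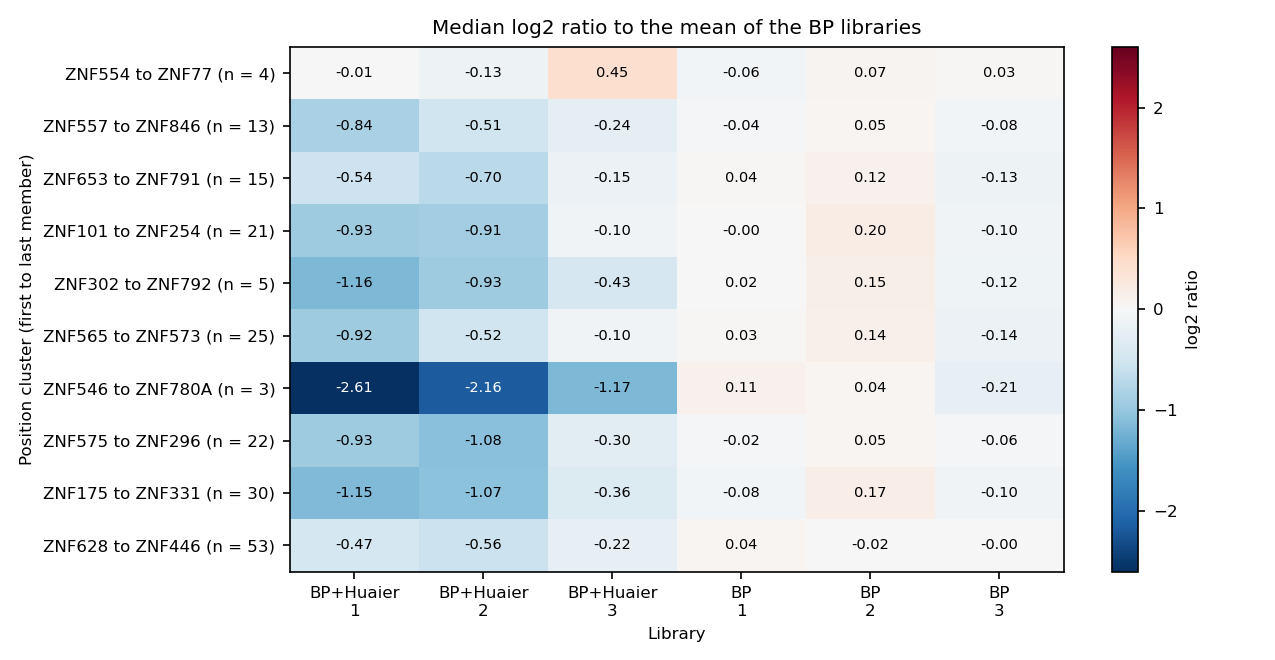
Median log2 ratio of each library's values to the mean of the 3 BP libraries (colour and printed number) for the 10 position clusters with at least 3 tested genes, from the short-arm end at the top to the long-arm end at the bottom. In BP+Huaier 1 and 2 all 10 medians are below 0; in BP+Huaier 3, 9 of the 10 are closer to 0, and the ZNF554 to ZNF77 cluster is at 0.45.

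Without BP+Huaier 3, 7 of the 10 clusters had more genes that fell, and the clusters ZNF554 to ZNF77, ZNF302 to ZNF792 and ZNF546 to ZNF780A had as many as before. In the cluster around ZNF91 17 of 21 genes then fell and 1 rose, from ZNF565 to ZNF573 17 of 26 fell, from ZNF653 to ZNF791 7 of 15, from ZNF557 to ZNF846 8 of 13 with 2 that rose, from ZNF175 to ZNF331 25 of 30, from ZNF575 to ZNF296 14 of 22 with 3 that rose, and from ZNF628 to ZNF446 26 of 53 with 8 that rose. In that fit 31.0% of all genes tested fell and 28.8% rose. Below 40% GC, 76.9% of the chromosome 19 ZNF genes and 54.2% of protein-coding genes that are not ZNF fell. These shares were 70.2% and 41% from 40 to 45% GC, and 64.5% and 28.5% from 45 to 50%. From 50 to 60% they were 14.3% and 15.4%, and above 60% 6.25% and 10.5%. The cluster medians ran from -0.02 in the ZNF554 to ZNF77 cluster to -2.67 in the ZNF546 to ZNF780A cluster. The most negative median thus stood in the same small cluster with and without that library.

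Of the 795 other protein-coding genes of the chromosome that were tested, 37 (4.65%) fell and 259 (32.6%) rose, with a median log2 fold change of 0.42. Inside the spans of the clusters they varied. From ZNF575 to ZNF296 none of 18 fell and 7 rose (median 0.53), and from ZNF557 to ZNF846 1 of 32 fell and 9 rose (median 0.44). From ZNF628 to ZNF446, by contrast, 3 of 19 fell and 1 rose (median 0.01). From ZNF565 to ZNF573 1 of 3 fell and none rose (median -0.85), from ZNF175 to ZNF331 neither of the 2 was called (median -0.07), and from ZNF653 to ZNF791 1 of 2 rose (median 0.63). ZNF genes on other chromosomes were nearer to those of chromosome 19: of 223 tested, 64 (28.7%) fell and 23 (10.3%) rose, with a median of -0.35. The difference between the ZNF genes of chromosome 19 and those of other chromosomes was not tested.

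GC content went with these values. The median transcript GC content was 42.4% for the 196 genes, 60.3% for the other protein-coding genes of the chromosome and 45.6% for ZNF genes elsewhere. It was 41.6% for the 65 genes that fell and 67.0% for the 8 that rose, and across the 196 genes the log2 fold change went with GC content (Pearson's r 0.499, Spearman's rho 0.378, a description across genes). Below 40% GC, the median log2 fold change was -0.76 for the 51 chromosome 19 ZNF genes and -0.26 for the 1810 protein-coding genes that are not ZNF. From 40 to 45% it was -0.73 for 84 ZNF genes and -0.13 for 2401 others, and from 45 to 50% -0.64 for 31 and 0.02 for 1925. From 50 to 60% it was 0.12 for 14 ZNF genes and 0.21 for 3848 others. Above 60% the values were close, 0.40 for 16 and 0.41 for 2056. So at low GC content the median of the ZNF genes stood below that of other genes of like content, and at high GC content the medians were close. ZNF genes on other chromosomes had like medians, at -0.57, -0.75 and -0.48 in the 3 bins below 50% GC. Beyond the fit that follows, the part of GC content in the result was not tested.

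With a trend on GC content and length removed in each library, 71 of the 196 fell and 16 rose, against 19.4% and 19.7% of all genes tested, and the median was -0.49 against 0.00 over all genes. Of the 65 genes that fell without this step, 61 still fell, and of the 8 that rose, 6 still rose. The median of the other protein-coding genes of chromosome 19 became 0.13 in that fit, and that of ZNF genes on other chromosomes -0.31. ZNF347 fell by 1.78 on the log2 scale there and ZNF546 by 2.04, while ZNF787 rose by 0.82. The correlation with GC content across the 196 genes was still 0.266.

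**Figure D4:**
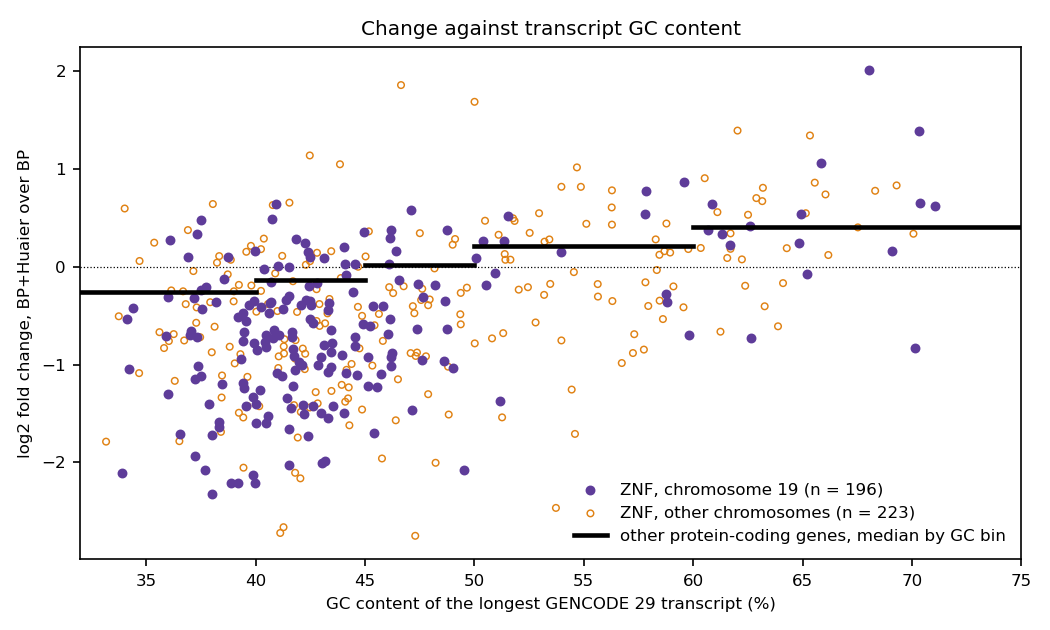
Log2 fold change, BP+Huaier over BP (y axis), against GC content of the longest transcript (x axis) for the 196 ZNF genes of chromosome 19 (filled) and 223 on other chromosomes (open); black lines are medians of the other protein-coding genes by GC bin. Most filled points below 50% GC lie under the black lines, and those above 60% lie around them.

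The number of linkers gave a related picture. The 38 genes whose transcript held no match to the linker motif had a median log2 fold change of 0.00, with 6 that rose and 5 that fell. The lack of a match does not mean that a gene lacks tandem fingers, because variant linkers were not counted. Genes with 1 to 4 linkers (46) had a median of -0.67 with 2 that rose and 16 that fell, those with 5 to 9 (72) -0.71 with 28 that fell, and those with at least 10 (40) -0.76 with 16 that fell. No gene with 5 or more linkers rose in this fit; with the GC and length trend removed, 3 with 5 to 9 linkers and 1 with at least 10 were called higher. GC content moved with the linkers, at a median of 49.4% with none and 40.9% with at least 10, and after removal of the GC and length trend the medians were -0.14, -0.60, -0.58 and -0.57 in the same order. Without BP+Huaier 3, 11 of 38, 25 of 46, 57 of 73 and 29 of 40 genes fell in these 4 classes, where 31.0% of all genes tested fell.

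Of 6 genes with an assigned role, 1 fell and none rose, where 15.0% of all genes tested fell and 14.4% rose. ZNF91, which represses the SVA family of retrotransposons, had 9.5, 12.3 and 21.9 CPM in BP+Huaier, against 20.5, 28.6 and 22 CPM in BP. BP+Huaier 3 lay within the BP range and the other BP+Huaier libraries below it (-0.70 ± 0.29, edgeR adjusted p = 0.099; -1.11 without BP+Huaier 3, edgeR adjusted p = 0.00010). ZNF93, which represses LINE-1 elements, stood at 0.593 ± 0.066 CPM in BP+Huaier and 0.795 ± 0.0757 CPM in BP (SD, n = 3 each; log2 fold change -0.41 ± 0.36, edgeR adjusted p = 0.40). ZNF274, which binds the 3′ ends of ZNF genes and recruits SETDB1 there, had 38.9, 29.8 and 40.7 CPM in BP+Huaier, against 32, 31.4 and 28.2 CPM in BP. Its groups overlapped (0.26 ± 0.16, edgeR adjusted p = 0.24).

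ZNF224, a repressor of the aldolase A gene, had 2.38, 1.40 and 4.15 CPM in BP+Huaier, against 6.32, 7.34 and 5.73 CPM in BP. It fell by 1.27 ± 0.34 on the log2 scale (edgeR adjusted p = 0.024), but the call was lost without BP+Huaier 2, BP 1, BP 2 or BP 3 (0.061 to 0.10), and 42.3% of its exon bases overlap an antisense gene, whose reads may be counted with it. ZNF304, a KRAB protein reported to recruit silencing complexes in colorectal cancer cells, stood at 8.76 ± 2.1 CPM in BP+Huaier and 11.6 ± 0.738 CPM in BP (-0.40 ± 0.20, edgeR adjusted p = 0.16). ZNF675, also called TIZ, an inhibitor of TRAF6 signalling, had 6.55 ± 1.06 CPM in BP+Huaier and 5.22 ± 1.38 CPM in BP (SD, n = 3 each; 0.33 ± 0.24, edgeR adjusted p = 0.32). It lies in the same cluster as ZNF91, and it was called higher once the GC and length trend was removed (0.59, edgeR adjusted p = 0.031).

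In 14 clusters a gene of highest mean CPM could be named, and 9 of these 14 genes were not called. Of the 196 tested chromosome 19 ZNF genes, 123 were not called, and 29.3% of all genes tested were called. ZNF146, known for its overexpression in pancreatic carcinoma and built of fingers alone, had 44.2, 48.1 and 71.6 CPM in BP+Huaier, against 69.0, 76.1 and 62.8 CPM in BP (-0.34 ± 0.20, edgeR adjusted p = 0.21). ZNF507, alone in its cluster, had 9.71, 10.6 and 28.4 CPM in BP+Huaier, against 26.9, 29.3 and 26.7 CPM in BP (-0.76 ± 0.36, edgeR adjusted p = 0.14). In both genes BP+Huaier 1 and 2 were below all BP libraries and BP+Huaier 3 was not. ZNF473, which takes part in the processing of histone pre-mRNA, stood at 12.0 ± 2.29 CPM in BP+Huaier and 13.7 ± 0.910 CPM in BP (-0.19 ± 0.18, edgeR adjusted p = 0.44). ZNF791, ZNF766, ZNF555 and ZNF333 had log2 fold changes of -0.39, -0.01, 0.03 and 0.20, none past the test (edgeR adjusted p 0.25, 0.98, 0.93 and 0.42).

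A list of 44 genes held the corepressor machinery through which KRAB proteins act and other chromatin genes, with KDM4A, KDM4B, KDM4C and NSD1 among the latter. Of the 44, 43 were tested, 6 rose, 5 fell and 32 did not pass, with a median log2 fold change of 0.11. The 11 called are no larger a share of the list than the 29.3% of all genes tested that were called in either direction. TRIM28, the corepressor itself, had 942, 781 and 545 CPM in BP+Huaier, against 562, 539 and 615 CPM in BP. BP+Huaier 1 and 2 were above the BP libraries and BP+Huaier 3 within them (0.40 ± 0.20, edgeR adjusted p = 0.16), and without BP+Huaier 3 it was called higher (0.60, edgeR adjusted p = 0.00012). With the GC and length trend removed, TRIM28 was not called (-0.03, edgeR adjusted p = 0.83). SETDB1 stood at 34.7 ± 3.57 CPM in BP+Huaier and 39.6 ± 0.990 CPM in BP (-0.19 ± 0.14, edgeR adjusted p = 0.31). ATF7IP, the partner that protects SETDB1 from degradation, had 53.0, 63.8 and 121 CPM in BP+Huaier, against 138, 151 and 121 CPM in BP (-0.78 ± 0.28, edgeR adjusted p = 0.063), and CBX5, which encodes HP1 alpha, stood at 84.3 ± 34.0 CPM in BP+Huaier and 105 ± 7.36 CPM in BP (-0.31 ± 0.25, edgeR adjusted p = 0.36). Both were called lower without BP+Huaier 3 (-1.22 and -0.68). With the GC and length trend removed, ATF7IP was called lower (-0.45, edgeR adjusted p = 0.019) and CBX5 was not called (0.09, edgeR adjusted p = 0.53).

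The clearest fall in that list was of TASOR, a core subunit of the HUSH silencing complex, with 22.1, 16.3 and 32.9 CPM in BP+Huaier, against 74.8, 78.7 and 71.6 CPM in BP. The groups were far apart and the log2 fold change was -1.65 ± 0.23 (edgeR adjusted p = 0.0022). MPHOSPH8, another HUSH subunit, which binds methylated lysine 9 of histone H3, had 24.5, 23.7 and 35.4 CPM in BP+Huaier, against 47.9, 54.1 and 47.8 CPM in BP (-0.84 ± 0.18, edgeR adjusted p = 0.010; 0.055 without BP+Huaier 2 and 0.057 without BP 2). PPHLN1, the remaining HUSH subunit in the list, missed the threshold (-0.40, edgeR adjusted p = 0.10) and was called lower without BP+Huaier 3 (-0.50, edgeR adjusted p = 0.0068). With the GC and length trend removed, PPHLN1 was not called (-0.13, edgeR adjusted p = 0.41). The other genes that fell were ATRX (-0.90), NSD1 (-0.87) and SUV39H2 (-0.68), and those that rose included DAXX (0.84), SUV39H1 (0.78), EHMT2 (0.61), GATAD2A (0.58) and GATAD2B (0.46). TASOR and DAXX kept their calls with each library left out. ATRX, NSD1 and SUV39H2 lost theirs without BP+Huaier 1, BP+Huaier 2, BP 1, BP 2 or BP 3 (edgeR adjusted p 0.064 to 0.17), EHMT2 without the same libraries (0.068 to 0.13), GATAD2A and GATAD2B without BP+Huaier 2, BP 1, BP 2 or BP 3 (0.065 to 0.13), and SUV39H1 without BP 2 or BP 3 (0.061 and 0.051). The number of called genes in the list was 30 without BP+Huaier 3, 9 without BP+Huaier 1, 4 without BP+Huaier 2, BP 1 or BP 3, and 2 without BP 2. All genes moved likewise: without BP+Huaier 3, 31.0% of all genes fell and 28.8% rose, and without BP 2, 6.14% fell and 5.46% rose.

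Promoters of the tested genes were read from RefSeq (GRCh38.p14), from 250 bases before to 50 after the start, for the 176 of 196 genes that matched. They held a median of 21 CpG dinucleotides, against 22 in all 15300 protein-coding promoters. Only 12459 protein-coding genes were tested, so the 15300 include genes with too few counts, unlike the 176. The part of this difference between the sets in the values below was not tested. Of 5 motifs searched on both strands, the ETS motif CCGGAAGT stood in 42 of the 176 (23.9%), against 6.31% of all promoters, in 12 of 56 genes that fell and in 2 of 8 that rose. The CRE motif TGACGTCA stood in 3.98% against 2.65%, the NRF1 motif in 1.70% against 1.72%, the YY1 motif AAGATGGC in 7.39% against 3.97%, and TATAAA in 2.27% against 9.59%. Promoters of a gene that rose and of one that fell are printed as examples with the ETS motif, on either strand, in capitals. Both lie on the minus strand, ZNF787 at chr19:56121246-56121545 and ZNF780A at chr19:40090894-40091193.
ZNF787: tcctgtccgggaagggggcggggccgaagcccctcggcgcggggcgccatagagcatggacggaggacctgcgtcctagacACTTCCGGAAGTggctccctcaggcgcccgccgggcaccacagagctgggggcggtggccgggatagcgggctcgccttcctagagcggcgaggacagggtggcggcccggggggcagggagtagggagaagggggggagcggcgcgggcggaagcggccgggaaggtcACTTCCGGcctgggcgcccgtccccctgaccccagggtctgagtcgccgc
ZNF780A: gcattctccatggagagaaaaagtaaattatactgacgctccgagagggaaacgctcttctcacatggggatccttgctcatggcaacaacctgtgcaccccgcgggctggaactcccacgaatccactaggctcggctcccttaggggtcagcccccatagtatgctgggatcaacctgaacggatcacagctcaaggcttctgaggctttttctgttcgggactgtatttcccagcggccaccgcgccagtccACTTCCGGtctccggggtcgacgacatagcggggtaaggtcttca
The motif was thus present in genes of both directions, at 21.4% and 25.0%. The motif match is a description of these letters only.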

How the data were processed

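RNA sequencing counts of 6 MIA PaCa-2 libraries were used. The submitters' processing notes name the build GRCh38 and, as tools, featureCounts 1.6.1, HISAT2 2.1.0 and fastp 0.20.0; no source used here gives the annotation release or counting settings. The authors deposited raw counts, whole numbers for every gene, with totals of 15657593 to 17036565. Of the table's genes, 44 second copies of pseudoautosomal genes, with 0 counts, and ANK2, broken over 3 lines, were left out. Symbols came from a table of gene names (99.77% of IDs matched), and biotypes, GC content and transcripts from GENCODE 29.

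In R 4.3.3, edgeR 4.0.16 (filterByExpr, TMM, robust glmQLFit, group as the only term) compared BP+Huaier with BP over 15022 genes. A call is an adjusted p under 0.05 (Benjamini-Hochberg), and CPM carry TMM factors. The common biological coefficient of variation was 18.1%. Counts differed between libraries of a group by 17.6 to 77.9 times the sampling variance in BP+Huaier and 3.71 to 9.85 times in BP, and none was merged. Deviations of same-numbered libraries correlated at 0.01, -0.08 and -0.33, and those of differently numbered libraries at -0.33 to 0.33. With 3 libraries per group and BP+Huaier 3 apart, these values cannot decide whether the numbers pair the libraries. The GC and length trend was removed as a spline in each library. Near-identical transcripts were found with blastn 2.17.0, and figures drawn with matplotlib 3.10.9 in Python 3.11.15. The fits were tested on simulated counts.

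The members, lists and rules were chosen with earlier results of these data known. Genes named are, among those of at least 1 CPM, the 10 largest falls and rises past the threshold, the 5 highest per kilobase, the highest in each cluster and ZNF91, ZNF93, ZNF274, ZNF224, ZNF304 and ZNF675; of the corepressor list, TRIM28, SETDB1, ATF7IP, CBX5 and the 4 largest called changes. Of that list, 1 gene is not reported here, though it enters the counts. Further genes of that list, genes named only with the GC and length trend removed, the GC and linker classes, the identity and overlap limits, the motifs and the printed sequences were chosen after values were seen. Finger and KRAB counts from proteins were planned but not made, and linkers in transcripts were counted in their place. Alternatives were DESeq2 size factors, library size alone, DESeq2 1.42.0, limma-voom with sample weights (limma 3.58.1), no filter, the replicate number as a block, protein-coding genes only, at least 5 CPM, the GC and length trend, both together, each library left out, and an adjusted p under 0.01. BP+Huaier 3 left out together with the trend, and the clusters, GC bins and linker classes without BP+Huaier 3, were added after seeing the data.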

Additional observations from a re-analysis of the deposited data

How the results depend on the processing

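The median of the chromosome 19 ZNF genes stayed negative in every setting run, from -0.40 at 5 CPM or more to -0.89 without BP+Huaier 3. Library size alone gave a median of -0.88, with the median of all genes at -0.28, and -0.60 for ZNF genes on other chromosomes. Genes that fell (65) numbered 129 by limma-voom (33.9% of all genes fell), 27 of 105 tested at 5 CPM or more (12.9% of all) and 24 at an adjusted p under 0.01 (5.39% of all). They numbered 25 to 122 with each library left out (5.92% to 31.0% of all) and 105 without BP+Huaier 3 and the GC trend (29.9% of all). With no filter on low counts, 86 of 226 tested genes fell (9.63% of all) and 10 rose (9.09% of all). Genes that rose (8) numbered 5 by library size alone (7% of all genes rose), 17 by limma-voom (31.0% of all) and 16 with the GC trend removed (19.7% of all). They numbered 4 at an adjusted p under 0.01 (5.5% of all), 3 to 16 with each library left out (5.27% to 28.8% of all) and 15 without BP+Huaier 3 and the GC trend (30.3% of all). Called genes of the corepressor list (11) numbered 18 by DESeq2 (of all genes 16.2% fell and 18.4% rose), 31 by limma-voom (33.9% and 31.0%) and 22 with the GC trend removed (19.4% and 19.7%). They numbered 18 with the replicate block and the GC trend (18% and 17.2%), 2 at an adjusted p under 0.01 (5.39% and 5.5%) and 31 without BP+Huaier 3 and the GC trend (29.9% and 30.3%). With each library left out they numbered 2 to 30, where 5.92% to 31.0% of all genes fell and 5.27% to 28.8% rose. ZNF358 turned to -0.36 with the GC trend removed, -0.37 with the replicate block added and -0.31 without BP+Huaier 3, and reached 0.39 without BP+Huaier 3 alone. The cause of these moves was not tested, apart from the stricter threshold and the smaller number of genes tested. The replicate block alone left 55 genes that fell and 6 that rose. ZNF628 and ZNF865 lost their calls under it (edgeR adjusted p 0.070 and 0.078). Whether libraries of the same number belong together is not known. Clusters of at least 3 tested genes numbered 11 with the 0.5 Mb gap. Over the named genes, 725 values kept their side of the threshold, 106 lost the call, 39 gained it and 3, all of ZNF358, turned. The 725 include values that changed sign without passing the test, such as ZNF358 by library size alone (-0.13). With 3 libraries per group of unequal spread, and 12 tested genes under 1 CPM on average, single falls of low genes are imprecise, and counting intervals would cover counting error only.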
